A study of Mus musculus with 6 samples.

Results

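From the 54532 genes of the count table, 10 genes of the late keratinocyte program were followed through 6 libraries of sorted mouse skin cells: Krtdap, Sbsn, Dmkn, Calm4, Casp14, Cdsn, Tgm1, Tgm3, Asprv1 and Cnfn. They were taken by gene name, as non-keratin genes of the spinous, granular and cornifying layers outside the Lce, Sprr and S100a families. All 10 passed the filter on low counts and were tested. The dorsal epidermis of C57BL/6 mice aged 4 weeks, male and female and with no allele or treatment named, was dissociated into single cells. The 3 NCAM-enriched libraries (labelled NCAM_enriched) came from cells bound by anti-PSA-NCAM beads and then sorted as NCAM-positive and negative for DAPI, a dye that enters dead cells. The 3 bulk skin libraries (labelled Total_skin_DAPI_neg) came from DAPI-negative cells without that selection. With Smart-seq2, which copies whole transcripts from a few cells, 500 sorted events went into each library. NCAM, a cell adhesion molecule, is a surface marker of Merkel cells, the touch-sensing cells of the epidermis. The selection rests on this 1 surface molecule, and no source used here says that the libraries of a group came from separate animals, so the p-values measure only the spread between these libraries.

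Keratinocytes divide in the basal layer and then move outward through the spinous and granular layers. On the way they switch on secreted and calcium-binding proteins, build corneodesmosomes that hold the cells together, and crosslink a protein envelope under the membrane while lipids are laid down outside it. The end product is the cornified layer, the barrier of the skin.

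The libraries held between 1343190 and 4481830 counts in total. A single count was therefore worth 0.216 to 0.773 normalised CPM, the count scaled to a common library size after TMM adjustment. The authors call the NCAM-enriched cells Merkel cells in their methods. All 10 listed Merkel cell markers were detected in each of the 3 NCAM-enriched libraries. They were also detected in each bulk skin library, except Chga in library 3. Their summed level was 482 to 1674 CPM in the NCAM-enriched libraries against 133 to 186 in bulk skin. Basal keratinocyte markers were detected in every library as well, 10 of 10, with summed levels of 8965 to 32490 CPM in the NCAM-enriched group and 14274 to 18189 in bulk skin. NCAM-enriched library 2 stood apart. Its 6 fibroblast markers summed to 33003 CPM, against 363 and 41.7 CPM in NCAM-enriched libraries 1 and 3, where Lum was at 0, and 10356 to 18198 CPM in bulk skin. It was also the shallowest library, and fits of the 10 genes that rest on it are given with and without it. Genes of the other lists are given from all libraries only.

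Among the 10 genes, 3 lie side by side and their promoters share a short motif, so their starts are shown before the values. Sbsn, Dmkn and Krtdap follow each other on the forward strand within 39.6 kb of chromosome 7 (GRCm38, chr7:30751471-30791097). All 10 genes had a promoter in RefSeq (assembly GRCm38.p6), with 14 windows of 160 bases that hold 150 bases before the start and 10 from it. The letters TGANTCA were taken as the AP-1 motif, with any base at N, so that the pattern reads the same on both strands. This pattern occurred in windows of Sbsn, Dmkn and Krtdap and in no window of the other 7 genes. Of all 32851 promoter windows of the same length, 4.53% held it. In the windows below, AP-1 and TATA box matches (TATAAA) are in capitals. Dmkn is shown at the first and the last of its 3 listed starts.
Sbsn (chr7:30751321-30751480, forward strand): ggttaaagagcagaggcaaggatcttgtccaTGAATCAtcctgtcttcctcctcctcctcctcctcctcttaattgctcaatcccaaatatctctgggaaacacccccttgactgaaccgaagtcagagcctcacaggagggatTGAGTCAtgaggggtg
Dmkn, first start (chr7:30763606-30763765, forward strand): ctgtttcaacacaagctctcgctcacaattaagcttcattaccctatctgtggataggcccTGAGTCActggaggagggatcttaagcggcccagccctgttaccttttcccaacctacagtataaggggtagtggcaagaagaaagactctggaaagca
Dmkn, last start (chr7:30776255-30776414, forward strand): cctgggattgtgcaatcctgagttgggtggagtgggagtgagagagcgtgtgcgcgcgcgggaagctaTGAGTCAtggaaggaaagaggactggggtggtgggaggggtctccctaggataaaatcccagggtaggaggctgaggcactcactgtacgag
Krtdap (chr7:30787755-30787914, forward strand): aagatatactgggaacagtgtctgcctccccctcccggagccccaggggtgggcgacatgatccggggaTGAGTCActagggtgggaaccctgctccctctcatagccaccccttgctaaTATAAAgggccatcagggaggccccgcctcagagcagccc
The AP-1 match began 81 bases before the start in Krtdap, 119 and 6 bases before it in Sbsn, and 89 and 82 bases before it at the first and last start of Dmkn. In Sbsn the match at 119 bases was TGAATCA, while the other matches shown were TGAGTCA. Krtdap also held a TATA box 30 bases before its start, as did Tgm3 at 28 bases, among 7.88% of all windows. The motif of the GRHL factors, AACNNGTT, was in none of the 14 windows and in 2.08% of all windows. The C/EBP motif, TTNNGNAA on either strand, was in windows of Sbsn and Dmkn and in 23.9% of all windows, and the KLF motif, CCNCNCCC on either strand, was in windows of 9 genes and in 39.3% of all windows. A gene was counted if any of its windows matched, while the shares are of single windows, so they do not compare directly. These letter matches are a description and were searched with the results known.

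The comparison of NCAM-enriched with bulk skin asks how a sort for Merkel cells differs from DAPI-negative cells without that sort. Bulk skin also held fibroblast markers at 10356 to 18198 CPM and red blood cell genes at 747 to 1176 CPM. Its RNA was therefore not of epidermal cells alone. Of the 10 late keratinocyte genes, 4 rose in the NCAM-enriched group, namely Krtdap, Sbsn, Calm4 and Asprv1, with an adjusted p of at most 0.05 (edgeR quasi-likelihood test, Benjamini-Hochberg over 13157 genes), and 0 fell, also at an unadjusted p under 0.05. Of all genes tested, 1.04% were called higher. DESeq2 called the same 4 genes and 5.06% of all genes it tested. The fitted log2 fold change was above 0 for 10 of 10, although Tgm3 turned below 0 with limma-voom, with the replicate block and without NCAM-enriched library 2. The median of the 10 was 3.49, while the median over all genes was -0.07 and 47.7% of them were above 0. In 5 of the 10 genes every NCAM-enriched library lay above every bulk skin library, as for 11.1% of all genes tested. In mixed cells, more cells of a type and more RNA per cell cannot be told apart.

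**Figure D1:**
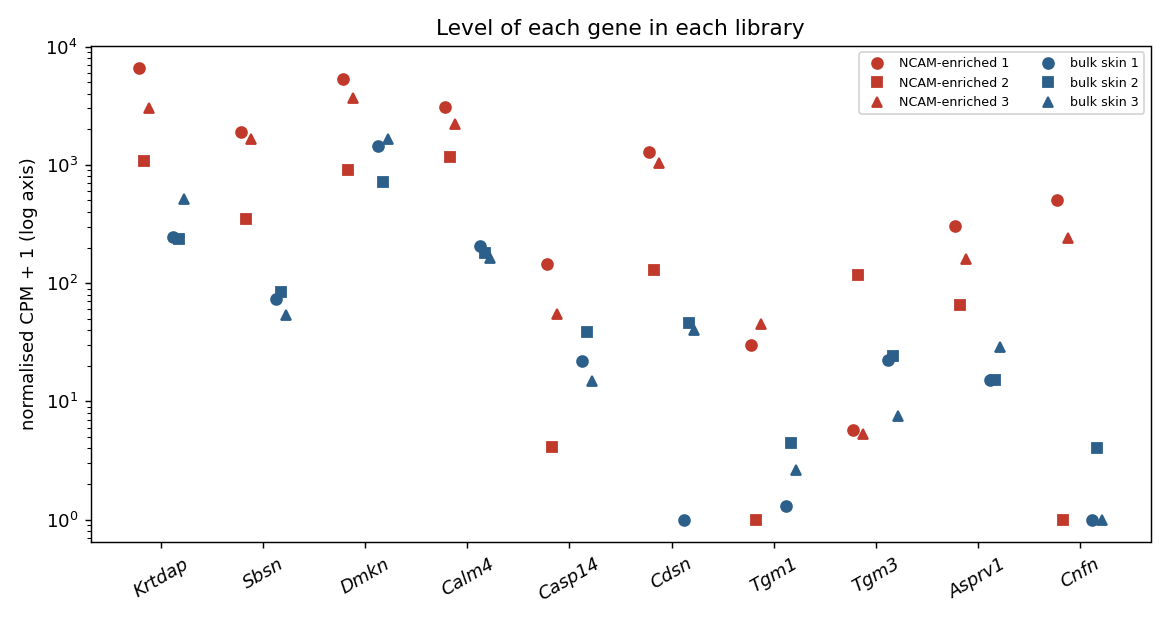
Normalised CPM + 1 on a log axis for each of the 10 genes, with red points for the 3 NCAM-enriched and blue points for the 3 bulk skin libraries and 1 marker shape per library number. Krtdap, Sbsn, Calm4, Cdsn and Asprv1 show no overlap between groups, NCAM-enriched library 2 is the lowest of its group for 9 genes, and Tgm3 is high in that library alone.

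Sbsn encodes suprabasin, a secreted protein of the suprabasal layers (chr7:30751471-30756134). Its level was 1892, 348 and 1654 CPM in NCAM-enriched libraries 1, 2 and 3 and 72.0, 82.6 and 52.6 CPM in bulk skin. The bulk skin values were close together and all far below the lowest NCAM-enriched value. The means were 1298 ± 831 (SD, n = 3) and 69.1 ± 15.2 CPM (n = 3), a log2 fold change of 4.23 ± 0.67 (SE; edgeR adjusted p = 0.0196). Of the exonic bases of Sbsn, 7.70% lie in Tmem147os as well, which is on the same strand.

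Krtdap encodes a small secreted protein of differentiating keratinocytes (chr7:30787896-30791097). It had 6532, 1084 and 3002 CPM in the NCAM-enriched libraries and 243, 235 and 516 CPM in bulk skin. The groups did not overlap, although the NCAM-enriched libraries were widely spread. On the log2 scale the rise was 3.42 ± 0.73 (SE), from 331 ± 160 CPM in bulk skin to 3539 ± 2763 CPM (SD, n = 3 each), and the adjusted p of 0.0496 from edgeR was just under the threshold. With upper quartile factors in place of TMM it was 0.0546.

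Dmkn, the gene between them, encodes dermokine, another secreted protein of stratified epithelia (chr7:30763756-30781063). Its level was 5300, 902 and 3644 CPM in the NCAM-enriched libraries and 1442, 718 and 1653 CPM in bulk skin. NCAM-enriched library 2 lay among the bulk skin libraries, and the other 2 lay above all 3. The means of 3282 ± 2221 and 1271 ± 491 CPM (SD, n = 3 each) gave a log2 fold change of 1.37 ± 0.67 (SE), which did not pass the test (edgeR adjusted p = 0.318). Without NCAM-enriched library 2 the fold change was 1.80 with an adjusted p of 0.0495. Without each other library in turn the adjusted p was between 0.313 and 0.635.

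The counts of the 3 neighbours were then set against each other. For each Krtdap count there were 0.811, 0.832 and 1.21 Dmkn counts in the NCAM-enriched libraries and 5.94, 3.06 and 3.20 in bulk skin. This log2 difference of -2.05 gave an exact two-sided permutation p of 0.1, the smallest that 3 against 3 can give (0.15 after Benjamini-Hochberg over 3 ratios). Against Sbsn, Dmkn stood at 2.80, 2.59 and 2.20 counts in the NCAM-enriched libraries and at 20.03, 8.69 and 31.4 in bulk skin, again without overlap (log2 difference -2.81, exact p = 0.1, adjusted 0.15). The Sbsn to Krtdap ratio did overlap, with 0.290, 0.321 and 0.551 against 0.297, 0.352 and 0.102 (log2 difference 0.76, exact p = 0.5). NCAM-enriched library 2 was low for all 3 genes, and its Dmkn ratios were close to those of its group.

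The nearest other genes of the locus did not pass the test. Tmem147, on the side of Sbsn, had a log2 fold change of -0.78 ± 0.40 (SE; edgeR adjusted p = 0.332), and Gapdhs one of 3.85 ± 1.64 (adjusted p = 0.246). Ffar2, beyond Krtdap, had no count in the NCAM-enriched libraries and 45, 77 and 25 counts in bulk skin (adjusted p = 0.0670). Atp4a, Ffar3 and Ffar1 had too few counts to be tested.

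Calm4 encodes a calmodulin-like calcium-binding protein of the skin (chr13:3837757-3838673). It was at 3068, 1159 and 2235 CPM in the NCAM-enriched libraries and at 205, 177 and 163 CPM in bulk skin. Of the 10 genes it was the one with the lowest adjusted p, and the groups were far apart. Its means of 2154 ± 957 and 182 ± 21.4 CPM (SD, n = 3 each) gave a log2 fold change of 3.57 ± 0.50 (SE; edgeR adjusted p = 0.0140). Calm4 shares 4.72% of its 50-base words with Calm5, so a small part of its counts could belong to that gene.

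Asprv1 encodes a retroviral-like aspartic protease that processes profilaggrin (chr6:86628164-86629710). Its level was 305, 64.1 and 158 CPM in the NCAM-enriched libraries and 14.3, 14.3 and 28.0 CPM in bulk skin. Every NCAM-enriched library was above every bulk skin library. The log2 fold change was 3.22 ± 0.64 (SE), with means of 176 ± 121 and 18.8 ± 7.90 CPM (SD, n = 3 each; edgeR adjusted p = 0.0387).

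Casp14 encodes a caspase of the cornifying layers that takes part in the breakdown of filaggrin rather than in cell death (chr10:78711991-78718294). The libraries held 145, 3.09 and 53.6 CPM in the NCAM-enriched group and 21.1, 37.8 and 14.0 CPM in bulk skin. NCAM-enriched library 2, with 4 counts, was below all 3 bulk skin libraries, and the other 2 were above them. The log2 fold change of 1.47 ± 1.03 (SE) did not pass the test (edgeR adjusted p = 0.504), nor did that of 2.01 without library 2 (adjusted p = 0.0728). Of the 9 other caspases tested, 7 had a fold change below 0 and 0 were called by edgeR. Above 0 were 47.7% of all genes tested. At an unadjusted p under 0.05, 2 caspases were lower, beside 18.9% of all genes in either direction. DESeq2 called 2 caspases lower, beside 928 of all genes. Casp2, the most abundant of them that was not called, stood at 67.1 ± 22.6 and 63.9 ± 11.2 CPM (SD, n = 3 each).

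Cdsn encodes corneodesmosin, the adhesive glycoprotein of corneodesmosomes (chr17:35552128-35557180). It had 1275, 129 and 1040 CPM in the NCAM-enriched libraries and 0, 45.4 and 38.9 CPM in bulk skin. The groups did not overlap, yet bulk skin library 1 had no count where its neighbours had 210 and 142. On the log2 scale the difference was 4.85 ± 1.44 (SE; edgeR adjusted p = 0.102), from 28.1 ± 24.6 to 815 ± 605 CPM (SD, n = 3 each). Without NCAM-enriched library 2 the adjusted p was 0.0338, and without each other library in turn it was between 0.0924 and 0.290.

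Cnfn encodes cornifelin, a protein of the cornified envelope (chr7:25367620-25369724). Its counts were 939, 0 and 844 in the NCAM-enriched libraries and 0, 14 and 0 in bulk skin, or 499, 0 and 239 against 0, 3.03 and 0 CPM. It was high in 2 NCAM-enriched libraries and near or at 0 in the other 4 libraries. A count of 0 in NCAM-enriched library 2 allows up to 2.32 CPM, taking 3 counts as the limit. The log2 fold change of 7.75 ± 2.04 (SE) had an edgeR adjusted p of 0.0779. Without NCAM-enriched library 2 the adjusted p was 0.00303, and without each other library in turn it was between 0.0630 and 0.285. All 14 bulk skin counts lay in library 2, so the size of the fold rests on that library.

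The transglutaminases that crosslink the envelope were among the lowest of the 10 genes per length. Tgm1, the membrane-bound enzyme (chr14:55700009-55713926), had 29.2, 0 and 44.3 CPM in the NCAM-enriched libraries and 0.310, 3.46 and 1.65 CPM in bulk skin. NCAM-enriched library 2 again had no count, and the other 2 were above all of bulk skin. A log2 fold change of 3.72 ± 1.65 (SE) gave an edgeR adjusted p of 0.265, or of 0.0361 without that library. Without each other library in turn the adjusted p was between 0.305 and 0.554. Of the exonic bases of Tgm1, 5.76% lie in Gm49067 as well.

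Tgm3, a transglutaminase of the epidermis and the hair follicle (chr2:130012349-130050399), was the exception among the 10. It had 4.78, 117 and 4.26 CPM in the NCAM-enriched libraries and 21.4, 23.1 and 6.58 CPM in bulk skin. It was high in NCAM-enriched library 2, the library in which 9 other genes were the lowest of their group, and below all of bulk skin in NCAM-enriched libraries 1 and 3. The log2 fold change of 1.28 ± 1.26 (SE; edgeR adjusted p = 0.648) turned to -1.92 without library 2 (adjusted p = 0.272). Hair shaft and inner root sheath keratins and Tchh, a list of 10, summed to 7.73 CPM in that library with 8 at 0, against 9.56 and 153 CPM in the other 2 NCAM-enriched libraries. Of the other transglutaminases 3 could be tested and 0 were called by edgeR or DESeq2, with 1 lower at an unadjusted p under 0.05. That unadjusted threshold was met by 18.9% of all genes tested, in either direction. Tgm5 had 91.1 ± 63.3 and 78.1 ± 24.9 CPM (SD, n = 3 each; log2 fold change 0.22 ± 0.66 SE, adjusted p = 0.904).

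Levels can be set against each other between genes per kilobase of exonic sequence. In bulk skin the order began with Dmkn at a mean of 580 CPM per kb, Krtdap at 488 and Calm4 at 198, and fell to Sbsn at 19.1 and Asprv1 at 12.2, with Tgm1 last at 0.571. Dmkn and Krtdap overlapped there, while all 3 bulk skin libraries put Krtdap above Calm4 and Calm4 above Sbsn without overlap of the ranges. In the NCAM-enriched group Krtdap led with 5213 CPM per kb, then came Calm4 with 2349, Dmkn with 1497, Sbsn with 358, Cnfn with 342 and Cdsn with 304. Neighbours in this order overlapped in every case, but the order Krtdap, Calm4, Dmkn held within each of the 3 libraries. Krtdap ranked number 2, 14 and 8 among all genes per kb in the NCAM-enriched libraries and number 178, 125 and 50 in bulk skin.

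The 10 genes together took 1.80%, 0.367% and 1.12% of all counts in the NCAM-enriched libraries and 0.195%, 0.138% and 0.260% in bulk skin. NCAM-enriched library 2 was nearest to bulk skin and still above it. Dmkn made up 27.8%, 23.7% and 30.2% of the counts of the 10 genes in the NCAM-enriched libraries and 71.4%, 53.6% and 66.8% in bulk skin, with no overlap. Calm4 made up 16.1%, 30.5% and 18.5% against 10.1%, 13.2% and 6.58%. Cdsn, at 6.69%, 3.39% and 8.62%, also stood above its bulk skin shares of 0%, 3.39% and 1.57%, with NCAM-enriched library 2 level with bulk skin library 2.

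**Figure D2:**
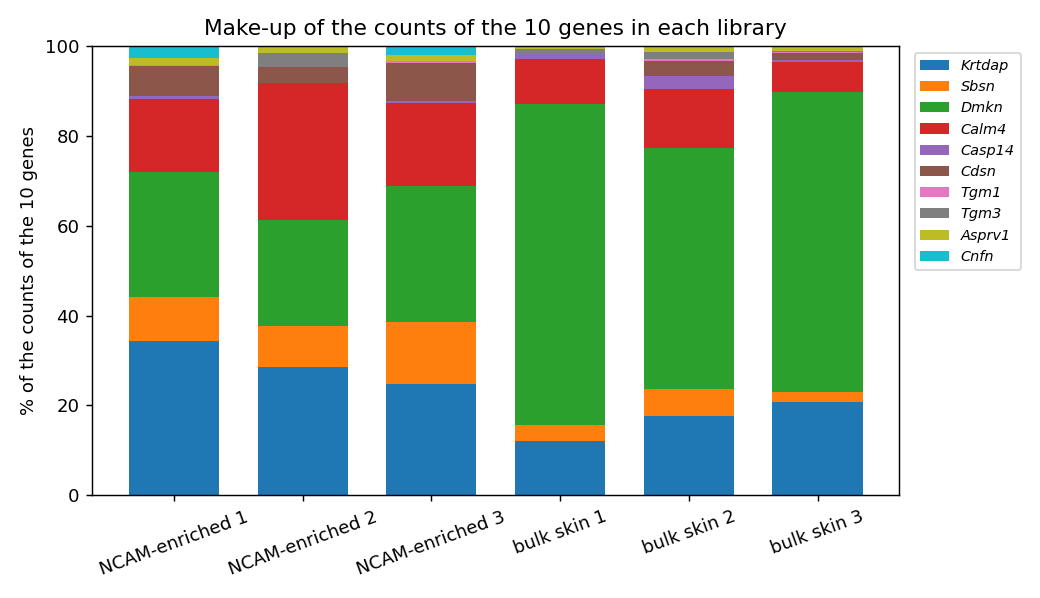
Stacked bars of the share in percent that each of the 10 genes took of their summed counts, 1 bar per library from NCAM-enriched 1 to bulk skin 3. Dmkn (green) fills 53.6% to 71.4% of the bulk skin bars and 23.7% to 30.2% of the NCAM-enriched bars.

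The size and the sign of the difference in their sum depended on the reference genes. Per count of the basal keratins Krt5 and Krt14, their summed counts were 4.31, 0.917 and 0.712 in the NCAM-enriched libraries and 0.252, 0.190 and 0.405 in bulk skin, a mean log2 difference of 2.39 without overlap. Krtdap, Sbsn, Calm4, Cdsn and Asprv1 stayed without overlap on this scale, taken singly. Per count of Krt1 and Krt10, keratins of the suprabasal layers, the sums were 1.49, 0.580 and 3.64 against 3.07, 1.66 and 5.28, which overlapped, with a mean log2 difference of -1.03. Krt1 and Krt10 themselves are given with the suprabasal keratins further on.

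Within the NCAM-enriched group library 1 had the highest value for 8 of the 10 genes and library 2 the lowest for 9. Bulk skin showed no such order, since library 1 was the highest for 1 gene, library 2 for 6 and library 3 for 3. Of 45 pairs of genes, 36 had a Pearson r above 0 over the 6 libraries on the log2(CPM + 1) scale, with a median of 0.778. The 36 pairs without Tgm3 ran from 0.361 to 0.999. These libraries include both groups, so the correlations hold the difference between groups and are given as a description. Among 8624 genes that averaged 20 CPM or more, those most like the mean pattern of the 10 were Psapl1 (r = 0.996), Irx3 (0.995), Bicd2 (0.993), Klk7 (0.993), Cdkn1a (0.993) and Esrp2 (0.993).

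Other genes that build the cornified layer were counted from 3 lists of 10. Of these 30 genes 27 were tested, 11 rose and 0 fell, against the 1.04% of all genes called higher, and 24 had a fold change above 0 with a median of 2.16. At an unadjusted p under 0.05, 0 of the 27 were lower, and DESeq2 called 0 lower. Among 8 envelope genes tested, 5 rose (Ivl, Flg, Flg2, Evpl and Ppl), with a median log2 fold change of 3.51. Evpl and Ppl encode plakins that carry the envelope, and Evpl was at 543 ± 90.6 against 54.8 ± 19.0 CPM (SD, n = 3 each; log2 fold change 3.31 ± 0.41 SE, edgeR adjusted p = 0.00939). Flg, the gene of filaggrin, was listed with 0 counts in all bulk skin libraries and had 116, 12.4 and 61.6 CPM in the NCAM-enriched libraries. Pooled over the NCAM-enriched group, its level was at least 258-fold higher, with 3 counts over bulk skin as the limit. That fold rests mainly on NCAM-enriched libraries 1 and 3. Cst6, a protease inhibitor of the cornified layer, had 4172 ± 3654 and 2281 ± 963 CPM (SD, n = 3 each) and did not pass (edgeR adjusted p = 0.704). It stood at 7391, 200 and 4925 CPM in NCAM-enriched libraries 1, 2 and 3 and at 1209, 2560 and 3074 CPM in bulk skin. Only NCAM-enriched library 2 lay below bulk skin.

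Of 10 corneodesmosome and protease genes, 4 rose (Dsc1, Dsp, Klk7 and Spink5), with a median log2 fold change of 2.10 over the list. Spink5 encodes the inhibitor of the kallikreins that shed the outer cells, and its level was 1503 ± 503 against 46.9 ± 17.0 CPM (SD, n = 3 each; log2 fold change 5.0 ± 0.52 SE, edgeR adjusted p = 0.00494). Klk7, one such kallikrein, was at 891 ± 637 against 57.1 ± 16.7 CPM (3.96 ± 0.73, adjusted p = 0.0313). Of 9 barrier lipid genes tested, 2 rose, Abca12, the lipid transporter of lamellar granules (log2 fold change 3.54 ± 0.55 SE, adjusted p = 0.0187), and Elovl4, an elongase of very long fatty acids (3.84 ± 0.62, adjusted p = 0.0205). The median of the lipid list was 1.66.

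**Figure D3:**
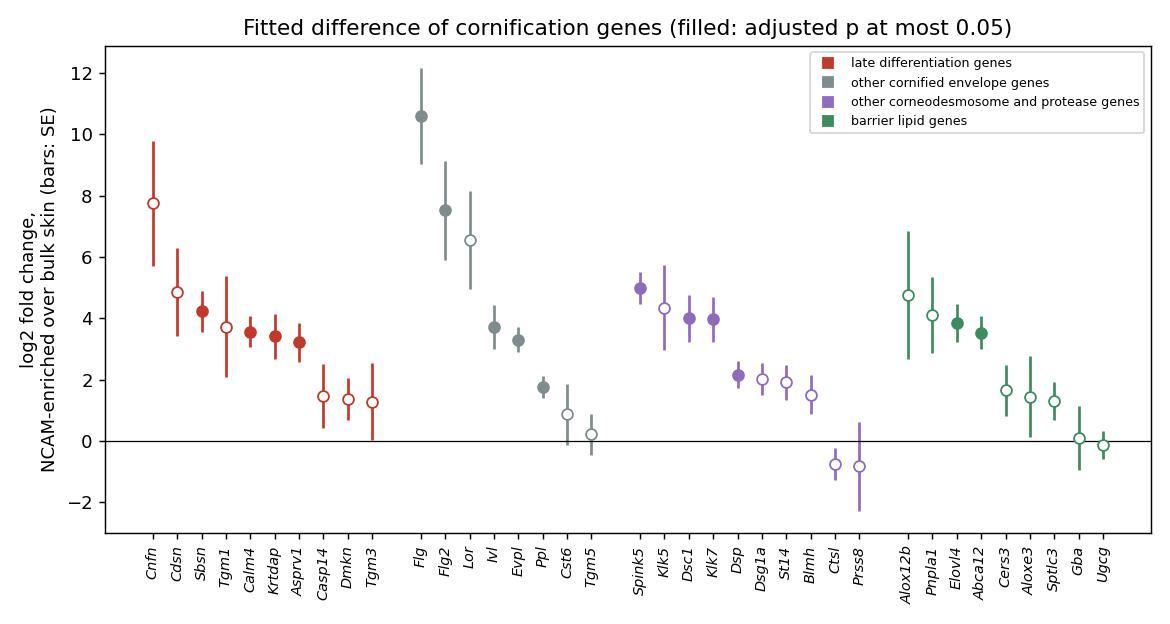
Fitted log2 fold changes of NCAM-enriched over bulk skin with SE bars for the 10 genes and 3 further lists, filled where the adjusted p was at most 0.05. Of the 10 genes 4 are filled and all are above 0 (Tgm3 not so with limma-voom, with the replicate block or without NCAM-enriched library 2), as are 24 of the 27 others, of which 11 are filled. The value drawn for Flg, which had no count in bulk skin, depends on the prior count of the fit.

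Of 3 suprabasal keratins tested, Krt10 and Krt77 rose. Krt77 had 7464 ± 2686 against 306 ± 29.0 CPM (SD, n = 3 each), a log2 fold change of 4.61 ± 0.56 (SE, edgeR adjusted p = 0.00884). Krt10 had 6221 ± 3653 against 397 ± 70.8 CPM (3.97 ± 0.62 SE, adjusted p = 0.0190). Krt1, at 1321 ± 1142 against 247 ± 99.6 CPM, did not pass (2.42 ± 0.76, adjusted p = 0.121). Of 11 transcription factors of differentiation, 4 rose, Grhl3, Ovol1, Cebpa and Zfp750, with a median log2 fold change of 1.14 over the list. Zfp750, which acts late in the program, was at 229 ± 22.3 against 35.4 ± 7.75 CPM (2.69 ± 0.37 SE, adjusted p = 0.0140). Klf4, a factor of barrier formation, had 1116 ± 412 and 600 ± 63.5 CPM and did not pass (0.90 ± 0.40, adjusted p = 0.272).

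Markers of other cells moved as well. T cell markers were called lower in the NCAM-enriched group for 7 of 8 genes, against 1.55% of all genes tested, with sums of 42.0 to 169 CPM against 3634 to 3829 and Cd3d and Cd2 at 0 in all 3 libraries. Langerhans and myeloid markers were called lower for 7 of 8 genes, with sums of 188 to 777 CPM against 11141 to 19486 and Cd207 at 0 in libraries 1 and 3. Red blood cell genes were called lower for 4 of 4 tested, with sums of 3.09 to 23.9 CPM against 747 to 1176, though reads of the near-identical globin copies may be split. Sebaceous gland genes, a list of 6, had 0 called by edgeR, and 2 higher and 1 lower at an unadjusted p under 0.05. Of all genes tested, 18.9% were under that unadjusted threshold, in either direction. DESeq2 called as many of the 6, beside 661 of all genes higher and 928 lower. None of 5 melanocyte genes had enough counts to be tested. Upper hair follicle markers, a list of 5 with 1 called higher (Krt17), summed to 6084 to 29158 CPM against 2101 to 3356. At an unadjusted p under 0.05 2 were higher, as by DESeq2. Krt79 had a log2 fold change of 3.24 ± 0.81 (SE, edgeR adjusted p = 0.0691). The sum rested on Krt17 and Krt79, while the other 3 had a fold change below 0 and the median log2 fold change of the list was -0.18. Of 10 basal keratinocyte markers, 1 was called lower (Postn) and 0 higher, also by DESeq2 and at an unadjusted p under 0.05. The part of these shifts, and of the fibroblast genes in NCAM-enriched library 2, in the values of the 10 genes was not tested. Without that library 8 of the 10 genes were called higher, all but Casp14 and Tgm3, and so were 3.09% of all genes tested in that fit.

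**Figure D4:**
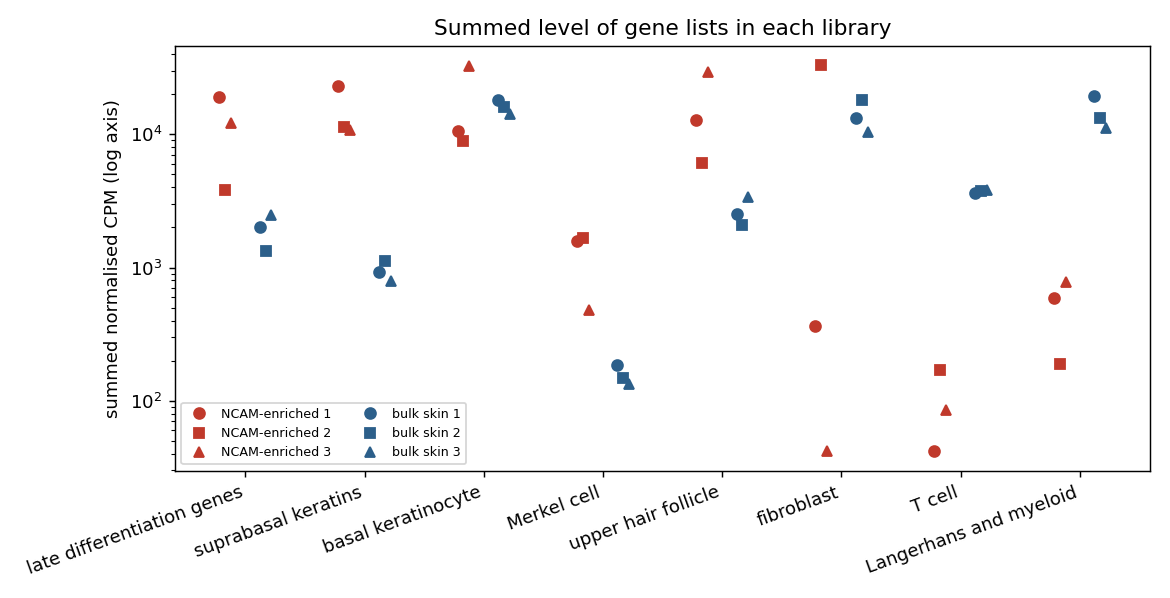
Summed normalised CPM on a log axis for the 10 late differentiation genes and 7 marker lists, with red points for NCAM-enriched and blue points for bulk skin libraries. The 10 genes sum to 3806 to 19049 CPM against 1340 to 2474, and the fibroblast list sets NCAM-enriched library 2 apart at 33003 CPM.

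The calls of the 10 genes were lost without any 1 bulk skin library, as were nearly all calls of higher genes. In these 3 fits edgeR called 0 of the 10, and 0, 0 and 1 of all genes higher, with fold changes of the 10 genes of the same sign. At an unadjusted p under 0.05 there were 6 of the 10 genes in each, beside 2115, 2237 and 2178 of all genes. These were 14%, 15% and 14.8% of the genes tested, counted in either direction. Without NCAM-enriched library 1 only Sbsn and Calm4 of the 10 were called, and 0.422% of all genes were called higher.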

How the data were processed

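The authors deposited whole-number read counts for each gene, not normalized. Per their methods, adapters were clipped, abundant sequences removed, reads aligned to GRCm38 with STAR and assigned with featureCounts, but for annotation release and strandedness the choice is not given in the sources used here. Smart-seq2 marks neither strand nor molecules, so limits cover counting error only. Groups came from the labels. The test was edgeR 4.0.16 in R 4.3.3 (filterByExpr, TMM, quasi-likelihood F-test), with Benjamini-Hochberg adjustment over 13157 genes and a threshold of 0.05. SE is |log2 fold change| over the root of F. Positions and exonic lengths came from GENCODE M21, in which 54495 of 54532 gene IDs were found, and promoters from RefSeq. Scripts were tested on simulated data. Alternatives were DESeq2 1.42.0, limma-voom (limma 3.58.1), other normalization factors and filters, robust dispersion, a replicate block and leaving out each library. From each related list up to 4 called genes of smallest p and the most abundant uncalled gene were named, besides the locus neighbours and the 6 genes of most similar pattern. The result of 1 list is not reported here. Genes of other cell types, and Flg2, were named after their values were seen. The 10 genes, the lists and the motifs were chosen with earlier results of these data known.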

Additional observations from a re-analysis of the deposited data

How the results depend on the processing

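Over 15 alternatives Sbsn and Calm4 were called higher in 12, Asprv1 in 10, Krtdap in 9, and Casp14 and Tgm3 in none; the adjusted p of Calm4 ran from 2.37e-12 to 0.133. Of 148 values of single genes, 122 kept direction and side of the threshold. The number of the 10 genes called was 4 in the main fit, 6 with all genes of at least 1 count (Cdsn and Cnfn added), 3 with upper quartile factors, 2 with the replicate block and 0 to 8 on leaving out 1 library. Tgm3 turned to -0.64 with limma-voom and -0.18 with the replicate block, and ran from -1.92 to 1.78 on leaving out 1 library. Over all genes, 137 were called higher in the main fit, 661 by DESeq2, 351 by limma-voom, 769 with all genes of at least 1 count, 50 with the replicate block and 0 to 1099 on leaving out 1 library. Of the other cornification genes 11 were called, against 19 with all genes of at least 1 count, 6 with the replicate block and 0 to 18 on leaving out 1 library. The log2 difference in the summed counts turned from 2.39 against Krt5 and Krt14 to -1.03 against Krt1 and Krt10. The cause of these changes was not tested. The median over all genes moved from -0.07 to -0.37 with limma-voom, while that of the 10 genes was 3.49 and 3.15. Libraries with the same number correlated at 0.0226, 0.000250 and -0.00436 in their deviations from the group means, so the replicate block does not stand for a pairing. Genes at few counts, such as Tgm1 and Cnfn in bulk skin, are limited by depth.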
